A study of Mus musculus with 18 samples.

Results

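The 10 genes described here encode the enzymes that crosslink and hydroxylate collagen in mice. They were taken by symbol for their enzyme function, and the rule used no measured value, although earlier results of these data were known when the list was drawn up: the 5 lysyl oxidases (Lox, Loxl1, Loxl2, Loxl3 and Loxl4), the 3 lysyl hydroxylases (Plod1, Plod2 and Plod3) and 2 catalytic alpha subunits of prolyl 4-hydroxylase (P4ha1 and P4ha2). All 10 were found, each once, among the 51435 genes of the deposited tables, and all 10 passed the filter on low counts. RNA-seq was performed on the left ventricle of 18 C57BL/6J-derived mice, 9 WT and 9 littermates homozygous for a CRISPR/Cas9 frameshift mutation in exon 2 of Wwp2 (WWP2Mut/Mut, labelled KO), bred from heterozygous parents, 1 library per mouse. Wwp2 encodes an E3 ubiquitin ligase. The mutation was inherited through the germ line, so it was not restricted to the heart or to a cell type. Every mouse of both genotypes received angiotensin II (AngII) at 500 ng/kg/min for 28 days from a subcutaneous pump implanted at 8 weeks of age. No library without AngII was analysed here, so the levels below are those of the AngII-treated heart, and only the genotype was compared.

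Collagen chains are modified before they leave the cell. Prolyl 4-hydroxylase hydroxylates proline in the endoplasmic reticulum, which lets the triple helix form at body temperature, and its alpha subunits carry the active site while the beta subunit is P4hb. Lysyl hydroxylases act on lysine in the same compartment: Plod2 is known for the lysines of the telopeptides, whose hydroxylation steers collagen towards stable pyridinoline crosslinks, and Plod3 also transfers sugars. Lysyl oxidases act outside the cell, where they oxidise lysine and hydroxylysine to aldehydes that condense into the crosslinks of collagen and elastin, and angiotensin II is a classical inducer of this matrix in the heart.

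The codons below are shown because the members of each family share a metal site that they need for catalysis. In the lysyl oxidases, the capitals mark 3 histidine codons that bind copper. The stretches of the 4 Loxl genes each cross an exon junction, at chr9:58293720-58294378 (minus strand, exons 3 and 4), chr14:69682319-69689037 (plus strand, exons 10 and 11), chr6:83049998-83050125 (plus strand, exons 10 and 11) and chr19:42598807-42599896 (minus strand, exons 11 and 12), in GRCm38 and the GENCODE M21 annotation.
Loxl1: gagtggcatagctgtCACcaaCATtacCAC
Loxl2: atttggcacgactgcCACaggCACtacCAC
Loxl3: gtgtggcatgagtgtCATgggCATtacCAC
Loxl4: atttggcaccagtgcCACaggCACtacCAC
Loxl2 and Loxl4 were the most alike, with 28 of 30 bases equal, and the other pairs had 18 to 22 of 30.

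In the hydroxylases, the capitals mark the histidine and aspartate codons of the iron-binding triad that are parted by a single codon. The 24 bases of Plod1 lie in exon 18 at chr4:147913259-147913282 (minus strand), those of Plod2 in exon 19 at chr9:92606827-92606850 (plus strand) and those of Plod3 in exon 18 at chr5:136994996-136995019 (plus strand). Those of P4ha1 lie in exon 11 at chr10:59365316-59365339 (plus strand) and those of P4ha2 in exon 12 at chr11:54125790-54125813 (plus strand).
Plod1: CACcatGACgcctctaccttcacc
Plod2: CACcacGATgcctcaacctttacc
Plod3: CACcatGACtcgtccaccttcact
P4ha1: tatgagcccCATtttGACtttgca
P4ha2: tacgaaccaCACtttGACttctca
Plod1 shared 20 of 24 bases with Plod2 and with Plod3, Plod2 and Plod3 shared 17, and P4ha1 and P4ha2 shared 18. At the length of whole transcripts, 43 of the 45 pairs of members had no stretch of 31 bases in common, and the most that a pair shared was 17 such stretches (Loxl2 and Plod3), so that few reads could fit 2 members equally well.

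The libraries held 24566994 to 37451087 counts per mouse (median 31168997). Wwp2, the mutated gene, ranged from 3.83 TPM (a level corrected for gene length and library size) to 6.01 TPM in WT mice and from 1.19 to 3.00 TPM in WWP2Mut/Mut mice, without overlap (log2 fold change -1.40, SE 0.16, edgeR quasi-likelihood test, adjusted p = 0.00113). Without the 5 mice with atrial transcripts described next, its adjusted p in edgeR was 0.204 (log2 fold change -1.26), and without the 5 with most liver transcripts it was 0.977 (log2 fold change -1.42). The 6 cardiomyocyte markers were detected in every mouse, summing to 34800 to 46900 TPM, and the 6 fibroblast markers likewise, at 201 to 492 TPM in WT and 208 to 370 TPM in WWP2Mut/Mut mice. The medians of the fibroblast sums were 343 TPM in WT and 275 TPM in WWP2Mut/Mut mice. For the 6 activated fibroblast markers they were 149 and 113 TPM. None of these 6 was called, and 1 had an unadjusted p below 0.05, against 3.66% of all genes. On the TPM scale most genes were lower in WWP2Mut/Mut mice. The 5 atrial markers exceeded 50 TPM in 5 mice (3 WT and 2 WWP2Mut/Mut), and the 6 liver markers exceeded 40 TPM in 5 mice, all WT. Summed liver markers ranged from 1.30 to 216 TPM in WT and from 1.97 to 37.4 TPM in WWP2Mut/Mut mice, with an unadjusted p below 0.05 for 6 of 6 and 3 of them at 0 in at least 1 mouse. Fits with the summed liver or atrial marker level as a covariate called none of the 10 genes. Fits without those mice called none either, but they did not call Wwp2, so they say little of the members.

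The levels of the 10 genes covered more than 2 orders of magnitude, and the order was shared by most mice apart from 3 neighbouring pairs. Plod1 was the highest, at 28.2 ± 5.08 TPM (SD, n = 18), and was above P4ha2 (19.7 ± 4.11 TPM) in 18 of 18 mice. P4ha2 was above P4ha1 (15.5 ± 5.74 TPM) in 16 of 18. P4ha1, Loxl1 (13.9 ± 2.83 TPM) and Plod3 (13.2 ± 3.03 TPM) could not be ordered, since each was above its neighbour in 9 of 18 mice. Plod3 was above Plod2 (3.96 ± 1.18 TPM) in all 18 mice, by 3.38-fold on average. Plod2 and Loxl2 (3.77 ± 1.43 TPM) could again not be ordered (9 of 18). Below them came Loxl3 (1.66 ± 0.456 TPM), Lox (0.842 ± 0.341 TPM) and Loxl4 (0.143 ± 0.0900 TPM).

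**Figure D1:**
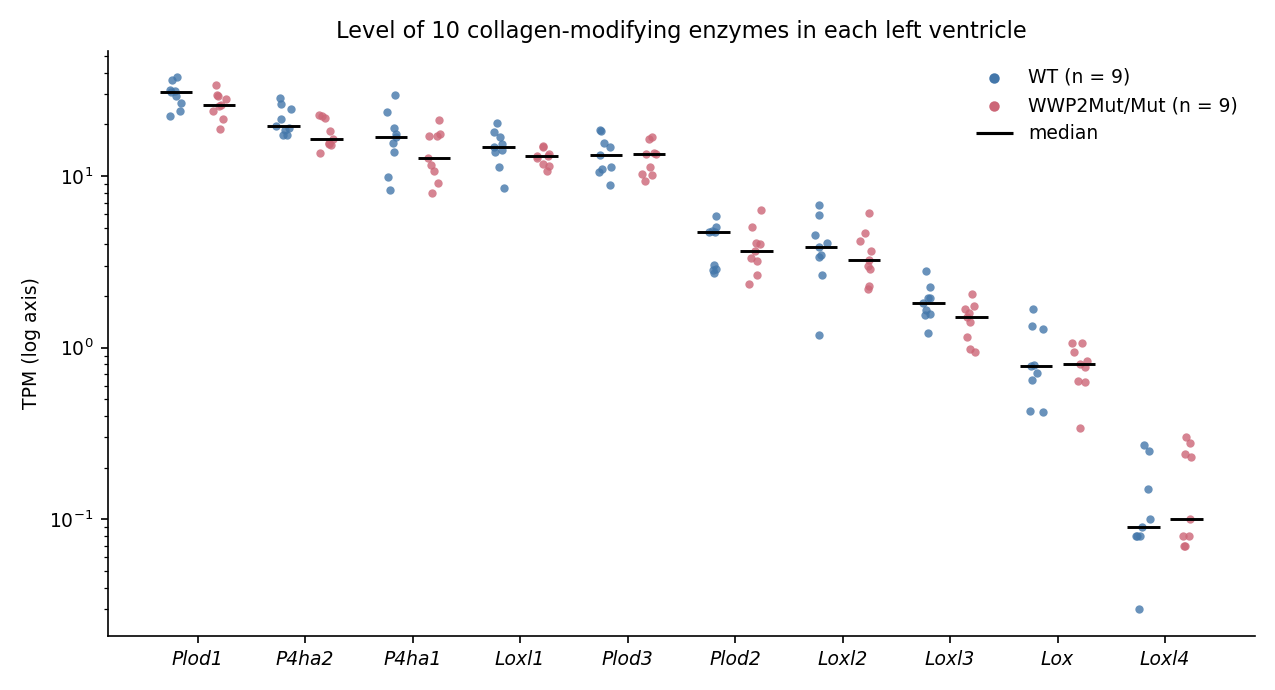
TPM of each enzyme gene (x axis, ordered by mean level) in each of 18 left ventricles, on a log axis, with WT in blue, WWP2Mut/Mut in red and the group median as a black bar. The levels run from Plod1 at 18.9 to 37.6 TPM down to Loxl4 at 0.03 to 0.30 TPM, and the genotypes overlap for each of the 10 genes.

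Each family had a leading member. Of the summed TPM of the lysyl oxidases, Loxl1 made up 68.7% ± 4.65 (SD, n = 18), Loxl2 18.2% ± 4.56, Loxl3 8.28% ± 1.84, Lox 4.08% ± 1.11 and Loxl4 0.692% ± 0.410. Lox, the founding member of the family, thus stood behind 3 of its paralogs in RNA level, with Loxl1 15.9 times as high in WT and 15.1 times as high in WWP2Mut/Mut mice (geometric means of the ratio). Among the lysyl hydroxylases, Plod1 made up 62.3% ± 3.29, Plod3 29.0% ± 3.55 and Plod2 8.71% ± 1.94. P4ha2 made up 56.9% ± 5.56 of the 2 alpha subunits, and P4ha1 the rest. P4ha3, a further alpha subunit, stood at 0.0533 TPM on average.

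The members also differed in how much they varied from mouse to mouse, and the spread was wider in TPM than in counts scaled for library size (CPM). In TPM, the coefficient of variation over 18 mice was lowest for Plod1 (18.01%), Loxl1 (20.4%) and P4ha2 (20.9%) and highest for Loxl4 (62.8%), Lox (40.5%), Loxl2 (38.0%) and P4ha1 (36.9%). In CPM it was lowest for Plod1 (8.71%), Plod3 (11.8%) and P4ha2 (11.9%), at 14.2% for Loxl1, and highest for Loxl4 (48.2%), Loxl2 (27.0%), Lox (26.8%) and P4ha1 (26.2%). Loxl4 had 5 to 47 counts per mouse, for which counting error alone would give 21.7%.

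In the comparison of genotypes, none of the 10 genes was called. At a false discovery rate below 0.05, the edgeR quasi-likelihood test called 0 of 10 members (all adjusted p = 1) and 0.00403% of all 24804 genes tested, which was Wwp2 alone. At an unadjusted p below 0.05 the count was also 0 of 10, against 3.66% of all genes, and with DESeq2 it was 1 (P4ha2), against 2.47% of all genes. The fold change was below 0 for 7 of 10 members (median log2 fold change -0.07), against 51.9% of all genes (median -0.01). The groups overlapped for all 10, and failed to overlap for 0.00618% of 16184 genes with a mean of at least 0.1 TPM. Without the 5 mice with atrial transcripts the count below 0 was 5 of 10 (median 0.04), and without the 5 with most liver transcripts it was 9 of 10 (median -0.19). No member was called in either fit, nor was Wwp2. Without WWP2Mut/Mut mouse 53-1 alone the count was 4 of 10 (median 0.008), and without covariates it was 5 of 10 (median -0.017), so no direction over the 10 genes is read from it. In whole-tissue RNA, fewer cells of a type and less RNA per cell cannot be told apart.

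The 95% confidence intervals of this model show how large a difference it leaves room for. In the model with lane and RNA concentration, all 10 intervals lay within a 2-fold change in either direction, and 8 lay within 1.5-fold. The exceptions to the narrower bound were P4ha1, whose interval went down to 0.644 times the WT level, and Loxl4, whose interval went up to 2.00 times. The estimate of Loxl4 ran from -0.56 without the mice with most liver transcripts to 0.46 with lane alone, so its bounds hold for this model only. Differences inside these intervals could not be resolved with 9 mice per genotype.

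**Figure D2:**
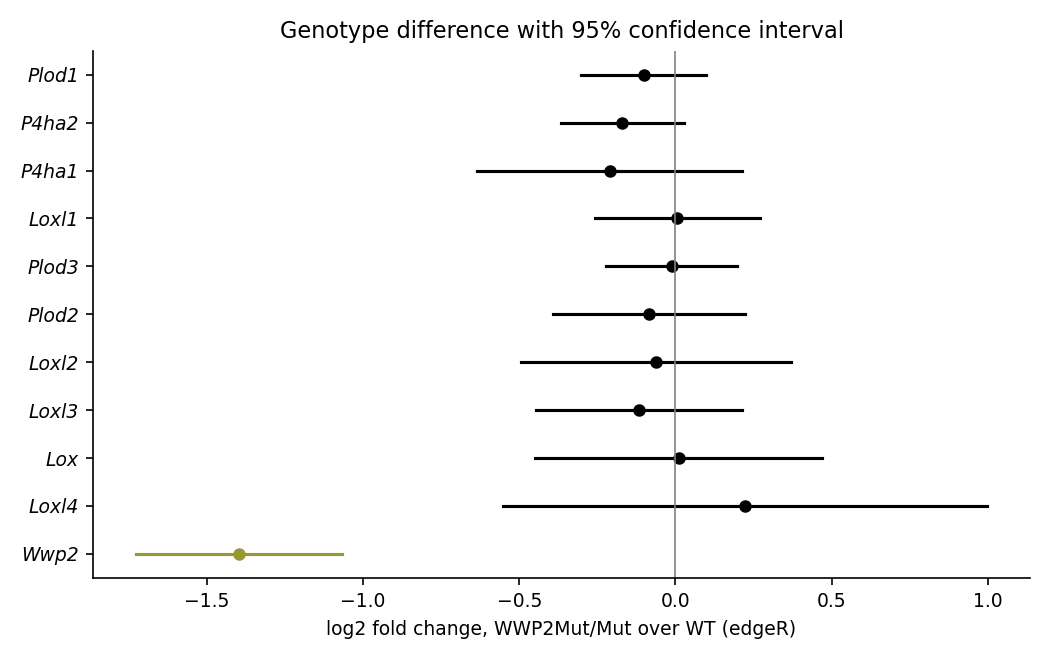
Log2 fold change of WWP2Mut/Mut over WT from edgeR (points) with 95% confidence intervals (lines) for the 10 enzyme genes, ordered by level, and for Wwp2. Each interval of an enzyme gene includes 0, whereas that of Wwp2 lies between -1.73 and -1.07.

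The lysyl oxidases showed no difference in level between genotypes that passed a test. Loxl1, which acts on elastin as well as collagen, ranged from 8.49 TPM through a median of 14.7 to 20.5 in WT mice and from 10.6 through 13.0 to 14.9 in WWP2Mut/Mut mice. The WWP2Mut/Mut values lay wholly inside the WT range, with 4 of 9 WT mice above all of them (log2 fold change 0.01, SE 0.13). Loxl2, a crosslinker of fibrillar and basement membrane collagen, ranged from 1.18 through 3.84 to 6.75 TPM in WT and from 2.20 through 3.23 to 6.06 TPM in WWP2Mut/Mut mice, again inside the WT range (log2 fold change -0.06, SE 0.21). Loxl3 ranged from 1.22 through 1.81 to 2.80 TPM in WT and from 0.94 through 1.51 to 2.05 TPM in WWP2Mut/Mut mice. For Loxl3, 2 WT mice lay above and 3 WWP2Mut/Mut mice lay below the other group (log2 fold change -0.12, SE 0.16).

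Lox (18:52516067-52529867, minus strand, GRCm38) ranged from 0.42 through 0.78 to 1.67 TPM in WT and from 0.34 through 0.80 to 1.07 TPM in WWP2Mut/Mut mice. The medians were nearly equal, and the wider WT range came from 3 mice above all WWP2Mut/Mut values (log2 fold change 0.01, SE 0.22). Loxl4 ranged from 0.03 through 0.09 to 0.27 TPM in WT and from 0.07 through 0.10 to 0.30 TPM in WWP2Mut/Mut mice (log2 fold change 0.22, SE 0.37). The signs of the near-zero estimates of Lox, Loxl1 and Loxl2, and that of Loxl4, turned under other scalings or covariates and are not read as directions.

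The lysyl hydroxylases were equally close. Plod1, whose product hydroxylates lysines of the helix, ranged from 22.4 through 30.9 to 37.6 TPM in WT and from 18.9 through 26.1 to 33.8 TPM in WWP2Mut/Mut mice (log2 fold change -0.10, SE 0.09). Plod2 ranged from 2.71 through 4.73 to 5.86 TPM in WT and from 2.34 through 3.68 to 6.33 TPM in WWP2Mut/Mut mice (log2 fold change -0.08, SE 0.15). The highest and the lowest Plod2 value of all 18 mice both came from WWP2Mut/Mut mice. Plod3 ranged from 8.89 through 13.3 to 18.5 TPM in WT and from 9.41 through 13.4 to 16.8 TPM in WWP2Mut/Mut mice (log2 fold change -0.01, SE 0.10).

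The prolyl 4-hydroxylase subunits had the lowest estimates in the edgeR model with lane and RNA concentration. With gene body coverage added, Loxl3 was lowest (-0.18), ahead of P4ha2 (-0.16) and P4ha1 (-0.07), and with liver markers added Loxl4 was lowest (-0.38). P4ha2 ranged from 17.3 through 19.5 to 28.4 TPM in WT and from 13.7 through 16.4 to 22.7 TPM in WWP2Mut/Mut mice. For P4ha2, 5 of 9 WWP2Mut/Mut mice lay below every WT mouse and 3 of 9 WT mice lay above every WWP2Mut/Mut mouse. Its log2 fold change was -0.17 (SE 0.09, 95% interval -0.37 to 0.03, edgeR unadjusted p = 0.0854, adjusted p = 1). The unadjusted p was 0.0498 with DESeq2 and 0.0381 in edgeR without WWP2Mut/Mut mouse 24-3. P4ha1 ranged from 8.35 through 16.9 to 29.8 TPM in WT and from 7.93 through 12.7 to 21.2 TPM in WWP2Mut/Mut mice (log2 fold change -0.21, SE 0.20). Its estimate was -0.05 without WT mouse 25-3 and ranged from -0.31 to -0.05 over all mice left out in turn. The spread of P4ha1 within each genotype was wider than the difference between them.

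Tested mouse by mouse in TPM, without covariates, none of the 10 differences passed an unadjusted two-sided exact permutation test over 48620 divisions of the mice, against 5.54% of 16184 genes. The smallest p was that of Loxl3 (0.0534), with 1.86 ± 0.459 TPM in WT and 1.46 ± 0.372 TPM in WWP2Mut/Mut mice (SD, n = 9 each), followed by P4ha2 (exact p = 0.0709), with 21.4 ± 4.10 and 17.9 ± 3.50 TPM. The exact p of Loxl3 fell below 0.05 without WT mouse 16-1, 39-1 or 45-3 or WWP2Mut/Mut mouse 52-1 or 54-1. That of P4ha2 did so without WT mouse 16-1 or 94-2 or WWP2Mut/Mut mouse 22-3, 33-1 or 62-1, and that of Loxl1 without WT mouse 16-1. Without WT mouse 16-1, where these 3 members passed, 11.8% of all genes passed as well, 98.7% of them lower in WWP2Mut/Mut mice, and in the other settings 3.95% to 6.89% of genes passed. Mean TPM was lower in WWP2Mut/Mut mice for 9 of 10 members. On the TPM scale this held for most genes: with limma on log2(TPM + 1), 86.5% of 12405 genes had a coefficient below 0, with a median of -0.13, and the median of the 9 members that passed the TPM filter was -0.17, so that relative to all genes it was close to 0. Within the 4 sequencing lanes, each with 2 to 3 mice per genotype, mean TPM was lower in WWP2Mut/Mut mice in 4 lanes for Plod1 and P4ha2, in 3 for Loxl1, Loxl3, Plod2, Plod3 and P4ha1, in 2 for Lox and Loxl2, and in 1 for Loxl4.

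The balance between the RNA levels of the enzymes did not depend on genotype in a way these mice could resolve. Ratios within a mouse depend little on library scaling, apart from the pseudocount, and 8 were compared on the log2 scale with a pseudocount of 0.1 TPM. The RNA ratio of Plod2 to Plod1 was 0.135 in WT and 0.146 in WWP2Mut/Mut mice (geometric means, log2 difference 0.11, exact permutation p = 0.492). Hydroxylation itself was not measured. The ratio of P4ha2 to P4ha1 was 1.31 and 1.33, and that of P4ha1 to its partner P4hb was 0.211 and 0.195. Per Col1a1, a fibrillar collagen chain, Lox stood at 0.0672 in WT and 0.0703 in WWP2Mut/Mut mice, Plod2 at 0.294 and 0.312, and P4ha1 at 1.18 and 1.10. The exact permutation p ranged from 0.492 to 0.956 over the 8 ratios, and all were 0.956 after Benjamini-Hochberg adjustment.

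The relation of the 10 genes to their substrate from mouse to mouse depended on the unit. Fibrillar collagen was taken as the mean log2(TPM + 1) of Col1a1, Col1a2 and Col3a1 in each of the 18 mice. On that scale Loxl1 had a Spearman rho of 0.835 with it (Pearson r 0.881, permutation p = 7e-05 and 2e-05, 0.000487 and 0.000217 after adjustment over 65 relations), Lox 0.707 (r 0.700, permutation p = 0.0014 and 0.00108, adjusted 0.00379 and 0.00334) and Loxl2 0.682 (r 0.796, permutation p = 0.00233 and 0.00014, adjusted 0.00505 and 0.0008). Loxl1 kept r = 0.755 without the 2 mice farthest from the median collagen level, Lox 0.567 and Loxl2 0.547. The rho of Loxl1 was 0.900 within WT and 0.867 within WWP2Mut/Mut mice, and that of Lox 0.717 and 0.750. It was 0.567 and 0.467 for Loxl2, 0.678 and 0.550 for Loxl3, 0.817 and 0.317 for Plod1, 0.617 and 0.450 for Plod2, 0.700 and 0.200 for Plod3, 0.483 and 0.0 for P4ha1, and 0.567 and -0.0333 for P4ha2, differences that were not tested. The hydroxylases also had positive values, from 0.484 for P4ha1 to 0.779 for Plod1 (adjusted p 0.0623 and 0.000953 over the permutations). The median over 11331 other genes was itself 0.492 on this scale. The share of them with a rho at least as high was 0.45% for Loxl1, 1.71% for Plod1, 6.02% for Lox, 8.79% for Loxl2, 23.1% for Loxl3 and 34.5% to 51.3% for Plod2, Plod3, P4ha1 and P4ha2. Lanes held too few mice for a value of their own; on residuals after genotype, lane and RNA concentration, rho was 0.872 for Loxl1 and 0.428 for P4ha1.

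Most of these relations were lower on the count scale. TPM sums differed between mice, and with counts scaled for library size by TMM (log2 CPM), the rho with collagen was 0.327 for Plod1, 0.294 for Plod2, 0.164 for P4ha1, 0.137 for Plod3 and -0.03 for P4ha2. On the same scale it was 0.655 for Loxl3 (r 0.501, permutation p of rho 0.00377, 0.0314 after adjustment), 0.529 for Loxl1 (adjusted 0.106), 0.467 for Lox (0.158) and 0.393 for Loxl2 (0.278), so that of these 9 members Loxl3 alone passed adjustment by rho. Without the 2 mice, rho was 0.606 for Loxl3, 0.415 for Loxl1, 0.265 for Lox and 0.135 for Loxl2. The median over all genes was 0.00929 in log2 CPM, and 0.565% of them had a rho at least as high as Loxl3, 1.69% as Loxl1, 2.71% as Lox and 4.86% as Loxl2. The r of Loxl2 on this scale, 0.711, went to 0.299 without the 2 farthest mice and so rested on them. On log2 CPM residuals after genotype, lane, RNA concentration and gene body coverage, a setting chosen after the data were seen, rho was 0.837 for Loxl3 (r 0.844, permutation p of r 2e-05), 0.816 for Loxl1 (r 0.820, 3e-05), 0.754 for Loxl2 (r 0.755, 0.00024) and 0.486 for Lox (r 0.553, 0.018), unadjusted. The p-values on residuals are too small, because the permutation treated residuals as free values after the covariates had been fitted. Plod3 stood at 0.451, close to Lox, and Plod1, Plod2, P4ha1 and P4ha2 lay between -0.187 and 0.0857. The median over all genes on these residuals was -0.0774. The share of them with a rho at least as high was 0.388% for Loxl3, 0.503% for Loxl1 and 1.24% for Loxl2. It was 8.0% for Lox and 9.46% for Plod3. Whether lysyl oxidases differed from hydroxylases in this was not tested.

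**Figure D3:**
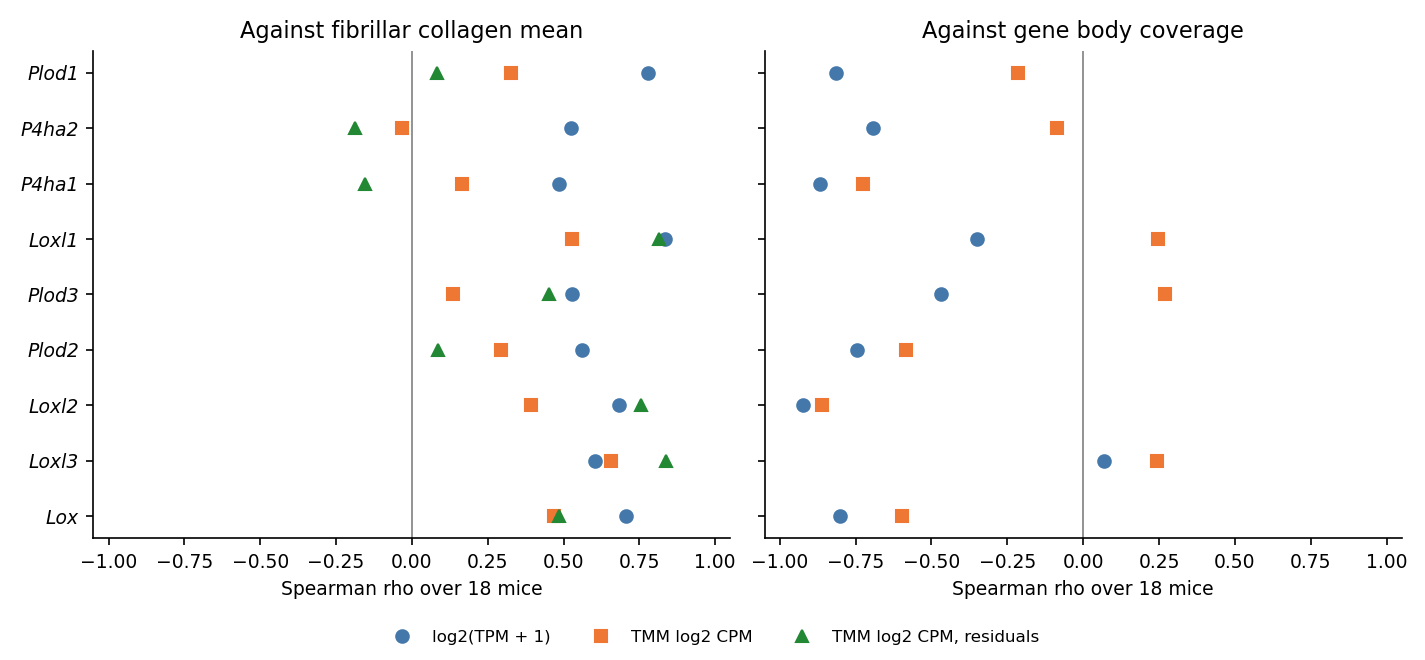
Spearman rho over 18 mice of 9 enzyme genes against the mean level of 3 fibrillar collagen genes (left) and against gene body coverage (right), with log2(TPM + 1) as circles, TMM log2 CPM as squares and, on the left, residuals of log2 CPM after genotype, lane, RNA concentration and gene body coverage as triangles. Loxl1, Loxl2 and Loxl3 have triangles at 0.754 to 0.837, Lox and Plod3 at 0.486 and 0.451, and Plod1, Plod2, P4ha1 and P4ha2 between -0.187 and 0.0857.

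Gene body coverage, a quality measure per library deposited with the samples (0.0288 to 0.0540, its exact definition not given in the sources used here), moved with several members. Loxl2 fell as coverage rose, with rho -0.922 in TPM and -0.860 in log2 CPM (r -0.840, permutation p of rho 3e-05, 0.00195 after adjustment). P4ha1 had rho -0.866 in TPM and -0.725 in log2 CPM (r -0.661, permutation p of rho 0.00079, 0.0128 after adjustment). Without the 2 mice farthest from the median coverage, r in log2 CPM was -0.788 for Loxl2 and -0.621 for P4ha1. Over all mice Lox (-0.598) and Plod2 (-0.585) had weaker values in log2 CPM that did not pass adjustment (0.0636 and 0.0678). Without the 2 mice, their r was -0.729 and -0.714. Plod1 went from -0.816 in TPM to -0.216 in log2 CPM and P4ha2 from -0.692 to -0.0857, while Loxl1, Loxl3 and Plod3 stood between 0.243 and 0.271 in log2 CPM. In TPM the median over 11334 genes was itself -0.615, and in log2 CPM it was -0.0423. The share of those genes with a rho at least as low as that of Loxl2 in log2 CPM was 9.57%, and for P4ha1 it was 21.1%, so that such relations were common.

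**Figure D4:**
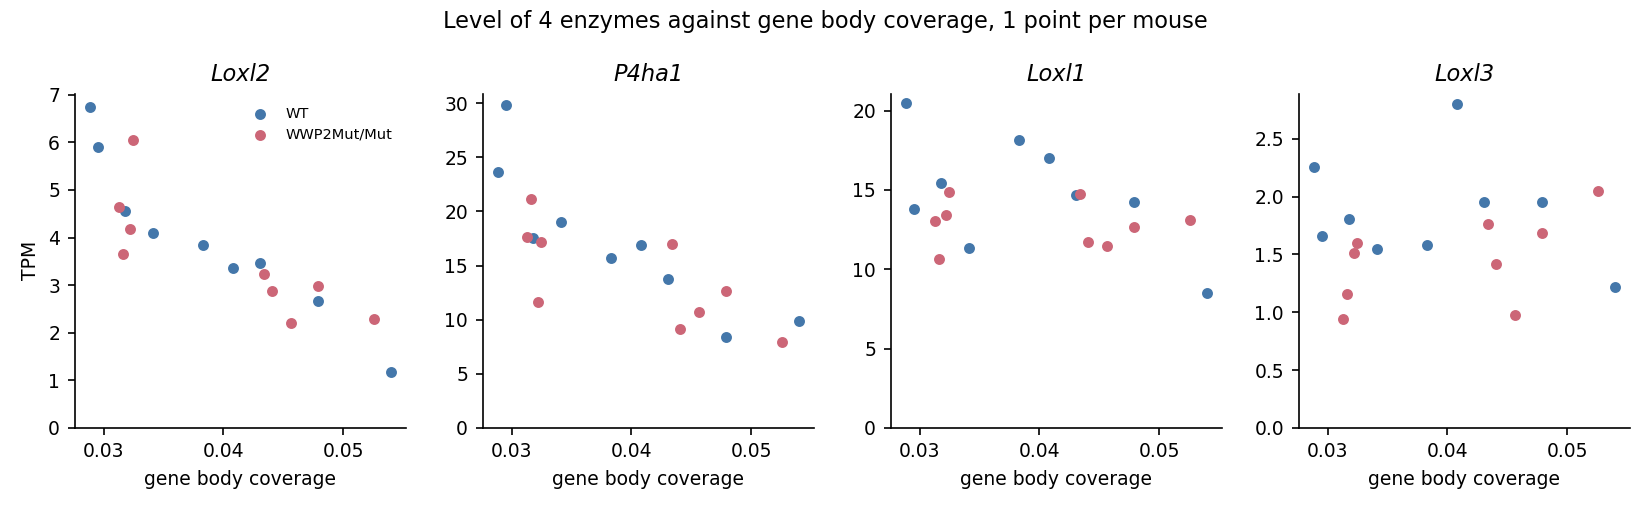
TPM of Loxl2, P4ha1, Loxl1 and Loxl3 (y axes, from 0) against the gene body coverage of the library (x axes), 1 point per mouse, WT in blue and WWP2Mut/Mut in red. Loxl2 goes from 6.75 TPM at the lowest coverage to 1.18 TPM at the highest, both in WT mice, and the WWP2Mut/Mut mice lie between them.

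The correlations of Loxl4 are not read here, since its TPM left a gap, with 6 mice at 0.23 to 0.30 TPM and 12 at 0.03 to 0.15 TPM. Its rho with gene body coverage was -0.862 in TPM. In log2 CPM it was -0.736 (permutation p of rho 0.00071, 0.0128 after adjustment), and 20.4% of genes were at least as low. The gap rests on few reads, and the counts of the 6 mice (24 to 47) and of the 12 (5 to 25) overlapped. The 7 mice with the most Loxl4 in TPM were the 7 with the lowest coverage, a number chosen after the values were seen. Atrial markers exceeded 50 TPM in 4 of the 6 mice and in 1 of the 12. The part of either measure in this gap was not tested.

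Among the 45 pairs of members, 5 passed adjustment by rho in log2 CPM. Pairs of other genes were not counted for comparison, so the number is not read as particular to the members. Of the 5 pairs, 2 were Loxl4 with Loxl2 and with Lox, which are not read because of the gap. Among the other 3, Loxl1 and Loxl3 had rho 0.705 (r 0.651, permutation p of rho 0.00139, 0.0151 after adjustment), and Lox and Loxl2 had rho 0.626 (r 0.622, permutation p of rho 0.00679, 0.0490 after adjustment). Without the 2 mice farthest from the median of the second gene, rho was 0.706 and 0.497 (permutation p 0.00303 and 0.0528, r 0.638 and 0.544). Loxl2 and P4ha1 had rho 0.649 (r 0.525, permutation p of rho 0.00386, 0.0314 after adjustment, without the 2 mice rho 0.562 and r 0.459), and both were also related to gene body coverage: on residuals after it, with genotype, lane and RNA concentration, rho was 0.0877, against 0.744 for Loxl1 and Loxl3. Plod1 and P4ha1 had rho 0.560 (r 0.650, permutation p of rho 0.0161, 0.0807 after adjustment), and 0.798 on those residuals, but without the 2 farthest mice its rho was 0.426 and its r 0.460 (permutation p of r 0.0732). The hydroxylase pairs did not pass adjustment by rho: Plod3 and P4ha2 had 0.593 (adjusted permutation p 0.0636, 0.428 on the residuals), Plod1 and P4ha2 0.556 (0.0812, 0.645 on the residuals) and P4ha1 and P4ha2 0.437 (0.197, 0.695 on the residuals). P4ha1 and P4ha2 had a rho of -0.0667 within WT and 0.75 within WWP2Mut/Mut mice, a difference that was not tested.

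The sequences upstream of P4ha1 and Plod1 are shown because this was the pair of hydroxylases with the highest value on the residuals, a choice made after the values were seen. They are the 250 bases before the RefSeq start in GRCm38.p6, at chr10:59323046-59323295 (plus strand) and chr4:147936777-147937026 (minus strand), and the capitals mark ACGTG or GCGTG on either strand, the core of the element bound by hypoxia-inducible factors, for which P4ha1 is a textbook target.
P4ha1: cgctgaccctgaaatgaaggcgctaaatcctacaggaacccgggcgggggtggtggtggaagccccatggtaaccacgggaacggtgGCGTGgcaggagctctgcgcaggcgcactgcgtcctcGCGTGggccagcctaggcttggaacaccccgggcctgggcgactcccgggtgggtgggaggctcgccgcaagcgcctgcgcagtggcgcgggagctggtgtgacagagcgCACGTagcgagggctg
Plod1: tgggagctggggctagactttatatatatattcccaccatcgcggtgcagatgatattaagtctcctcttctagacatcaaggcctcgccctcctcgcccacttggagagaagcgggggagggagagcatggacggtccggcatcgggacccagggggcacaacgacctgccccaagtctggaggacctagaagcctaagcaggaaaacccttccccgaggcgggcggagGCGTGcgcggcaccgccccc
P4ha1 held 3 such cores and Plod1 held 1. Of the 32851 RefSeq windows of this length, 38.6% held at least 1. All 5 members with a window in the table (P4ha1, P4ha2, Plod1, Plod3 and Loxl4) held at least 1. A match in these letters is no evidence of binding.

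The genes whose levels were most like those of each member were ranked by rho over 18 mice, among 6370 genes with a mean of at least 5 TPM and for the 8 members with a mean of at least 1 TPM. In log2(TPM + 1), Loxl1 was nearest to Fads1 (0.922), Necap2 (0.913) and the collagen gene Col6a2 (0.893). Loxl2 was nearest to Cdc42se2 (0.975), ENSMUSG00000112508 (0.973) and the TGF-beta receptor gene Tgfbr2 (0.971), and Loxl3 to Ilk (0.922), Sh3gl1 (0.871) and Elp2 (0.851). Plod1 was nearest to Ptpra (0.977), the matrix proteoglycan gene Prelp (0.961) and Galnt18 (0.959), Plod2 to Ivns1abp (0.924), Mia2 (0.897) and Dhx15 (0.897), and Plod3 to Tie1 (0.876), Pcdh1 (0.874) and the basement membrane collagen gene Col4a1 (0.872). P4ha1 was nearest to Nus1 (0.963), Akap2 (0.955) and Dnajc3 (0.95), and P4ha2 to Ap1g1 (0.940), Hnrnpa3 (0.938) and Hnrnpm (0.938).

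These neighbours depended on the unit. In log2 CPM, a ranking outside the rule for named genes, Fads1 (0.853) stayed among the 3 nearest to Loxl1, Akap2 (0.928) among those to P4ha1 and Hnrnpa3 (0.742) among those to P4ha2, and the other places went to genes not named above. Col6a2, Tgfbr2, Prelp and Col4a1 were thus no longer among the nearest. Loxl1 and Loxl3 then shared a neighbour, Mxra8, a matrix remodelling associated gene (0.866 and 0.829).

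None of the other genes of collagen modification, export, processing and deposition was called. None of the 9 listed genes of the hypoxia pathway and its targets was called either. Of these 54 genes together, all 54 were tested, 0 were called and 1 had an unadjusted p below 0.05 (against 3.66% of all genes). Their median log2 fold change was -0.03, with 32 of 54 below 0, against 51.9% of all genes. The 1 gene was Thbs1, a matricellular protein that activates latent TGF-beta. It ranged from 0.32 through 3.75 to 7.32 TPM in WT and from 0.91 through 1.47 to 2.18 TPM in WWP2Mut/Mut mice, where the ranges overlapped (edgeR log2 fold change -1.10, SE 0.35, unadjusted p = 0.00531, adjusted p = 0.943). Without the 5 mice with atrial transcripts its unadjusted p in edgeR was 0.0666.

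By role, levels and differences were as follows. P4hb, the beta subunit and a disulfide isomerase, stood at 77.9 ± 15.5 TPM in WT and 69.6 ± 14.0 TPM in WWP2Mut/Mut mice (SD, n = 9 each), and P4htm at 7.21 ± 0.994 and 6.86 ± 0.520 TPM. Of the prolyl 3-hydroxylation complex, Ppib averaged 83.9 TPM over all mice, Crtap 22.5 and P3h4 10.1 TPM, with log2 fold changes of the 6 genes between -0.13 and 0.13. Of the chaperones and glycosyltransferases, Sparc averaged 230.1 TPM, Serpinh1, the collagen-specific chaperone, 111 TPM and Colgalt1 13.5 TPM, and the 7 fold changes lay between -0.22 (Serpinh1, SE 0.14) and 0.09. Of the genes for export from the endoplasmic reticulum, Mia3 averaged 20.9 TPM, Mia2 17.9 TPM and Sec24d 6.07 TPM. All 5 genes of this list had a fold change below 0, between -0.23 and -0.07, against 51.9% of all genes, and none passed the test. No direction is read from these 5 genes.

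Of the enzymes that process collagen propeptides and pro-Lox, Pcolce averaged 38.6 TPM, Bmp1 7.86 TPM and Pcolce2 5.61 TPM. The most abundant substrates were Col4a1 (84.2 TPM), Col3a1 (50.8 TPM) and Col4a2 (45.7 TPM), and the 9 substrates had fold changes between -0.18 and 0.20. Of the elastic fibre genes and Lox partners, Tgm2, a transglutaminase that also crosslinks matrix, averaged 57.5 TPM, Fbln5 9.00 TPM and Fn1 8.34 TPM. In the hypoxia list, Vegfa averaged 111 TPM, Bnip3 93.5 TPM and Egln1, an oxygen-sensing prolyl hydroxylase of the same enzyme class as P4ha1, 80.8 TPM. Vegfa had the lowest fold change of that list (log2 fold change -0.30, SE 0.18, edgeR unadjusted p = 0.106). Its unadjusted p was below 0.05 with lane alone, with gene body coverage added, without WWP2Mut/Mut mouse 52-1 and without WT mouse 67-1.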

How the data were processed

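Poly(A) RNA was sequenced with a directional kit (NEBNext Ultra) from the left ventricles of 9 WT and 9 WWP2Mut/Mut mice, grouped by the genotype in their labels; each replicate is a separate mouse. The authors aligned reads to m38 (Ensembl 89 genes) with STAR 2.5.2b, quantified genes with RSEM 1.2.31 and removed rRNA and mitochondrial genes. They deposited expected counts (5.11% of values were not whole) and TPM, which summed to 671770 to 826381 per mouse. The authors also deposited a gene body coverage fraction, RNA concentration and lane for each sample.

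Expected counts were rounded and tested with edgeR 4.0.16 (TMM, glmQLFit, glmQLFTest; R 4.3.3) over the 24804 genes whose counts summed to above 1, adjusting for lane and for centred RNA concentration as the study's model did, Benjamini-Hochberg adjustment over all genes and a threshold of 0.05. The concentration of WT mouse 43-3 was deposited as 1.68 ng/µl, against 88.6 to 320.9 in the others, and was used as it stands. Alternatives were DESeq2 1.42.0, limma 3.58.1 on log2(TPM + 1), other filters, covariates and scalings, and leaving out mice. TPM and ratios were compared by two-sided exact permutation tests, and correlations used 100000 permutations, of which the smallest possible p is 1e-05 (Python 3.11.15, numpy 2.4.6, scipy 1.17.1, pandas 2.3.3). The 65 relations were 45 pairs of members and each member against collagen and against coverage. Scripts were tested on simulated data. Depth limits only the rare genes: counting error covers reads, not mice.

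The members and gene lists were chosen with earlier results of these data known. Named were all members, Wwp2, in each role of the pathway list the 3 genes with the highest mean TPM and those with an unadjusted p below 0.05, and the 3 genes most like each member of at least 1 TPM. Gene positions are from GENCODE M21 (GRCm38), upstream windows from RefSeq (GRCm38.p6), where 5 of 10 members were matched. Protein sequences were not used here.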

Additional observations from a re-analysis of the deposited data

How the results depend on the processing

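No paired analysis was run, because the sample labels do not give the litter of each mouse. No member was called under any setting run. A single gene, Wwp2, was called for genotype in all 18 mice, against 4 with DESeq2, 2 with limma without a TPM filter, and 0 without the 5 mice with atrial transcripts, where Wwp2 had a log2 fold change of -1.26 and an adjusted p of 0.204 in edgeR. Without the 5 mice with most liver transcripts, 1 gene was called, which was Pgk1-rs7, and Wwp2 was not (log2 fold change -1.42, adjusted p 0.977). Leaving out each mouse in turn gave 1 to 2 called genes. The 2 settings without 5 mice were chosen after the data were seen.

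Members with an unadjusted p below 0.05 numbered 1 (P4ha2) with DESeq2 and with limma on log2(TPM + 1), on log2(TPM + 0.1) and without a TPM filter, and 0 to 1 with each mouse left out, the 1 arising without WWP2Mut/Mut mouse 24-3. The shares of all genes below that p were 2.47%, 3.82%, 3.96% and 4.35% in those 4 fits and 3.58% without mouse 24-3. Of the 54 pathway genes, those below that p numbered 2 without covariates, 3 with lane alone, 3 with gene body coverage added, 3 with liver markers added and 2 without the 5 mice with most liver transcripts, and 1 to 3 with each mouse left out. The shares of all genes in the same order were 4.6%, 2.75%, 5.37%, 5.51% and 2.65%, and 2.96% to 4.61% with each mouse left out. Members with an exact p below 0.05 in TPM numbered 0 to 3 with each mouse left out, against 3.95% to 11.8% of 16184 genes, the highest share falling in the setting with 3 members. Members with a rho with collagen below that p numbered 10 in TPM, 2 in log2 CPM and 4 in TPM without the 2 mice farthest from the median collagen level. They numbered 4 on log2 CPM residuals, where the p-values are too small because covariates had been fitted first. Loxl4 is included in these counts, and the cause of their differences was not tested. In TPM the count says little of the members, since 51.3% of 11331 other genes had a rho at least as high as the lowest of them, P4ha1. In log2 CPM 1.69% of genes had a rho at least as high as Loxl1, the lower of the 2. On the residuals 8.0% had a rho at least as high as Lox, the lowest of the 4. No such share was taken without the 2 mice.

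Of 327 log2 fold changes of members under alternatives, 48 turned sign, none of them called. Lox turned to -0.115 with liver markers added, -0.0865, -0.167, -0.0865 and -0.102 with limma on log2(TPM + 1), on log2(TPM + 0.1), without a TPM filter and on rescaled TPM, and -0.21 without the mice with most liver transcripts. Loxl1 turned to -0.0426 without covariates, -0.0360 with lane alone, -0.0403 with coverage added, and -0.15, -0.16, -0.15 and -0.16 in those limma fits. Loxl2 turned to 0.00876 without covariates, 0.0393 with lane alone and 0.120 with coverage added. Loxl4 turned to -0.38 with liver markers added and -0.56 without the mice with most liver transcripts. Plod2 turned to 0.0203 without covariates. Plod3 turned to 0.0447 without covariates, 0.0544 with lane alone, 0.0169 with liver markers added and 0.11 without the mice with atrial transcripts, where Loxl3 turned to 0.12. With each mouse left out, the range was -0.14 to 0.18 for Lox, -0.0585 to 0.0639 for Loxl1, -0.229 to 0.0390 for Loxl2, -0.151 to 0.0134 for Plod2 and -0.115 to 0.0369 for Plod3, and, without a change of sign, -0.23 to -0.03 for Loxl3, 0.049 to 0.333 for Loxl4, -0.167 to -0.0425 for Plod1, -0.313 to -0.0543 for P4ha1 and -0.24 to -0.122 for P4ha2.

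The difference in TPM of Plod2 ranged from -0.522 to 0.0118 with each mouse left out. The log2 ratio of P4ha2 to P4ha1 differed by -0.0255 between genotypes after gene body coverage, that of Loxl1 to Lox by 0.00856 after lane and RNA concentration, and that of Loxl2 to Lox by -0.0238 with a pseudocount of 1 and by -0.00556 after lane and RNA concentration. With each mouse left out they ranged from -0.0405 to 0.0986, -0.176 to 0.0213 and -0.0815 to 0.113, that of Lox to Col1a1 from -0.0120 to 0.140 and that of Plod2 to Col1a1 from -0.00625 to 0.208. The rho of P4ha1 with collagen was -0.154 on log2 CPM residuals, and that of P4ha2 was -0.0341 in log2 CPM, -0.187 on log2 CPM residuals and -0.0333 within WWP2Mut/Mut mice.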
